A study of Ciona robusta with 6 samples.

Results

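The genes examined were ci-vp-r, tk and ins-l1, which by their symbols encode a vasopressin receptor, a tachykinin precursor and an insulin-like peptide of the tunicate Ciona robusta. They were the 3 entries with exactly these identifiers among the 793 genes of the deposited expression table. The genes were chosen by their measured levels in the same 6 libraries, so the levels and differences of these genes are given as a description, with no test. RNA came from pooled heart pieces of wild caught adult animals, cut into the pharyngeal blood sinus (PS, 2 libraries), the stomach blood sinus (SS, 2 libraries) and the central cardiac tube (C, 2 libraries). The groups differed by heart part, with no contrast of genotype or stage, and no agent was given. Per the study's methods, each sinus piece kept some of the neighbouring heart tube muscle, which limits how far a sinus library stands for the vessel alone. The labels do not say whether the pools of a group came from separate animals, so the errors below measure the spread between these libraries, which may be technical.

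Vasopressin-family peptides are secreted by neurons and act through G protein-coupled receptors. In vertebrates, receptors of this family on vascular smooth muscle raise cytosolic calcium and constrict vessels, and others govern water balance. Tachykinins are short amidated peptides cut from a longer precursor. They also act through a G protein-coupled receptor, and in vertebrates they serve as transmitters of sensory and gut neurons. Insulin-like peptides bind receptor tyrosine kinases and act, among other things, on growth and metabolism through the kinase Akt and the transcription factor FoxO. The tunicate heart reverses its direction of pumping, so that each sinus receives blood in turn.

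The levels are FPKM, a read number scaled by gene length and by a total of reads. Reads were first divided by a size factor of each library, which is set by the median gene. The total was found to be the same for the 6 libraries, the geometric mean of their sums over the 793 listed genes only. With that total, the ratio of reads to FPKM gave a whole-number gene length, within 0.01, in 100% of genes. The FPKM are therefore higher than values scaled to all reads would be. The reads behind them had already been adjusted by the authors for an unwanted factor and rounded, and summed to between 1412759 and 1950483 per library. The implied lengths were 1560 bases for ci-vp-r, 641 bases for tk and 1341 bases for ins-l1. The files' symbols could not be joined to the RefSeq gene table used here (0 of the 793 matched), so no coordinates or sequences are printed. The labelled tissue was checked with 6 heart muscle genes. Their summed level was 32020 to 32973 FPKM in the PS, 28493 to 31346 FPKM in the SS and 32493 to 34981 FPKM in the cardiac tube, and none was at 0 in both libraries of a group. Most of each sum was act, by its symbol an actin gene. It was at 25136 and 23972 FPKM in the PS, 19772 and 22183 FPKM in the SS and 23903 and 22207 FPKM in the cardiac tube. The sums are therefore a weak check of the labels.

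The 3 genes stood at opposite ends of the range of levels. The receptor gene ci-vp-r averaged 544.8 FPKM over the 6 libraries, which was rank 129 of 793 and above 83.7% of the listed genes. The peptide gene tk averaged 6.49 FPKM, at rank 716, and ins-l1 averaged 3.90 FPKM, at rank 747, where the median gene had 83.8 FPKM. The receptor rested on 1017 to 2034 adjusted reads per library. In contrast, tk rested on 2 to 12 adjusted reads and ins-l1 on 5 to 12, so a single read was worth 0.941 to 0.996 FPKM for tk and 0.450 to 0.476 FPKM for ins-l1. Both peptide genes were thus detected in every library, but close to the lower limit of these data.

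**Figure D1:**
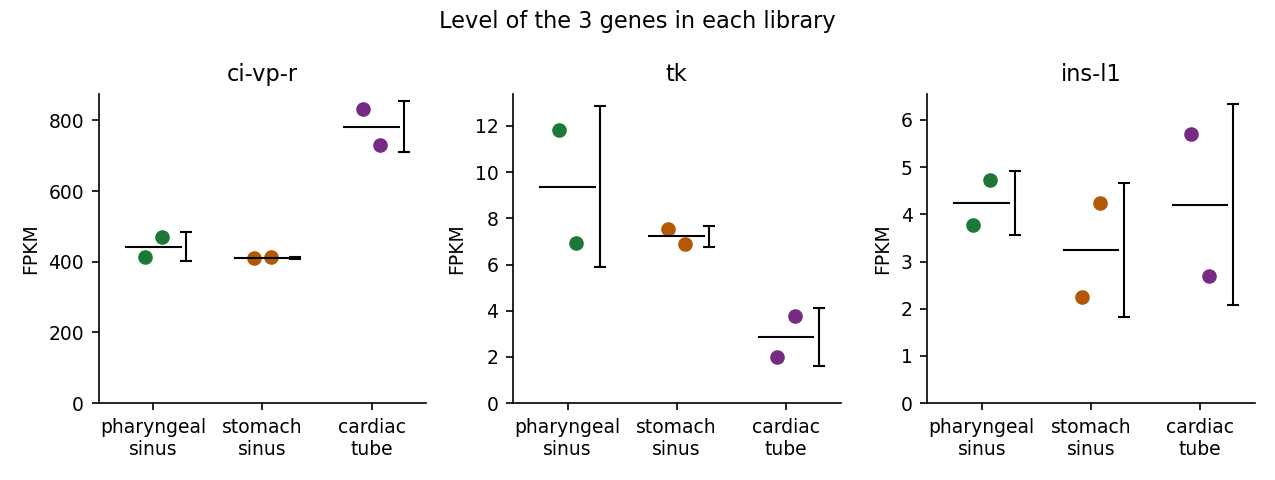
FPKM (linear axis from 0) of ci-vp-r, tk and ins-l1 in each library of the pharyngeal blood sinus, the stomach blood sinus and the cardiac tube. Points are libraries, horizontal lines are means and the bars beside them are the SD of 2 libraries. Both cardiac tube libraries lie above all sinus libraries for ci-vp-r (731 and 832 FPKM) and below them for tk (1.99 and 3.76 FPKM), and the groups overlap for ins-l1.

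The vasopressin receptor gene was lower in both blood sinuses than in the cardiac tube. Its level was 413.0 and 471.3 FPKM in the PS libraries and 409.3 and 412.2 FPKM in the SS libraries, against 832.3 and 731.1 FPKM in the cardiac tube libraries. All 4 sinus libraries were low and both cardiac libraries high, and the highest PS library lay 259.8 FPKM below the lowest cardiac library. The means were 442.1 ± 41.2 FPKM in the PS, 410.7 ± 2.04 FPKM in the SS and 781.7 ± 71.6 FPKM in the cardiac tube (SD, n = 2 each). The PS mean was thus 0.566 of the cardiac mean and the SS mean 0.525 of it. On the log2(FPKM + 1) scale the difference was -0.82 ± 0.13 for the PS minus the cardiac tube and -0.92 ± 0.13 for the SS minus the cardiac tube (SE of the limma fit). Of all listed genes, 3.91% had a lower difference in the PS and 1.77% in the SS. These comparisons share the cardiac libraries. In bulk tissue, fewer cells that express a gene and less of its RNA per cell cannot be told apart.

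The sinuses themselves were close for ci-vp-r. The PS libraries were at 413.0 and 471.3 FPKM and the SS libraries at 409.3 and 412.2 FPKM, so the PS lay above the SS by a gap of only 0.803 FPKM. The log2 difference was 0.10 ± 0.13 for the PS minus the SS. The order of the means was therefore cardiac tube, PS and SS, and the last pair did not differ beyond the SE. The small SD of the SS cannot be read as a precise level, since the removal of the factor ties the replicate differences of the 3 groups to each other.

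Tachykinin was higher in both blood sinuses than in the cardiac tube, at a far lower level than ci-vp-r. The precursor gene tk was at 11.8 and 6.92 FPKM in the PS libraries and 7.52 and 6.90 FPKM in the SS libraries, against 1.99 and 3.76 FPKM in the cardiac tube libraries. All 4 sinus libraries were above both cardiac libraries, while PS and SS overlapped. The means were 9.37 ± 3.47 FPKM in the PS, 7.21 ± 0.439 FPKM in the SS and 2.88 ± 1.25 FPKM in the cardiac tube (SD, n = 2 each). The PS mean was 3.26 times and the SS mean 2.51 times the cardiac mean, and the PS mean was 1.30 times the SS mean. On the log2(FPKM + 1) scale the differences were 1.42 ± 0.45 for the PS minus the cardiac tube, 1.12 ± 0.45 for the SS minus the cardiac tube and 0.30 ± 0.45 for the PS minus the SS (SE).

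These tk values rest on few reads. Summed over the libraries of a group, they came to 19 adjusted reads in the PS, 15 in the SS and 6 in the cardiac tube. If each library is moved by 1 adjusted read so as to bring the groups together, the log2 difference becomes 0.93 for the PS and 0.60 for the SS against the cardiac tube. Its direction stayed and its size shrank. No counting interval is given, because adjusted values are not read counts.

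The insulin-like gene ins-l1 had no order among the heart parts. Its level was 3.77 and 4.72 FPKM in the PS libraries, 2.25 and 4.24 FPKM in the SS libraries and 5.71 and 2.70 FPKM in the cardiac tube libraries. Both the highest and the next to lowest of the 6 values came from the cardiac tube, and every pair of groups overlapped. The means were 4.25 ± 0.675 FPKM in the PS, 3.25 ± 1.41 FPKM in the SS and 4.21 ± 2.13 FPKM in the cardiac tube (SD, n = 2 each). The log2 differences were 0.07 ± 0.49 for the PS minus the cardiac tube, -0.27 ± 0.49 for the SS minus the cardiac tube and 0.34 ± 0.49 for the PS minus the SS (SE). No neighbours in the order of the means differed beyond the SE. These values rest on 18 adjusted reads in the PS, 14 in the SS and 18 in the cardiac tube.

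**Figure D2:**
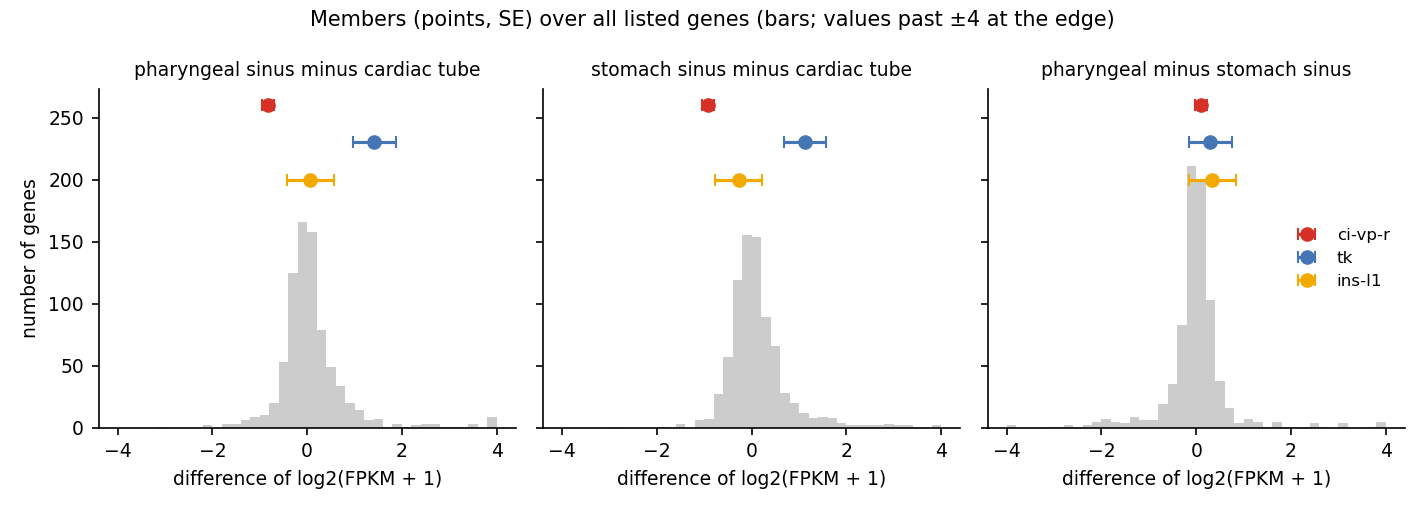
Difference of log2(FPKM + 1) in the 3 comparisons (horizontal axes), with the number of genes in each bin of all 793 listed genes as grey bars and the 3 genes as points with the SE. The height of a point has no meaning. The receptor gene ci-vp-r lies to the left of the bulk of genes against the cardiac tube (-0.82 and -0.92), tk to the right (1.42 and 1.12), and ins-l1 spans 0.

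Groups that do not overlap are common with 2 libraries each. Against the cardiac tube, 2 of the 3 genes (ci-vp-r and tk) did not overlap in the PS, where 61.7% of all listed genes did not, and the same 2 did not overlap in the SS, where the share was 61.4%. Between the sinuses 1 of 3, ci-vp-r, did not overlap, where the share was 51.5%. Nothing is read from these counts, since the genes were chosen on the same values. The median difference of all genes was within 0.02 of 0 on the log2 scale in each comparison.

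The relation of the members to each other varied by library. Per length, ci-vp-r was 34.9 to 68.2 times the level of tk in the 4 sinus libraries and 194 to 418 times in the cardiac tube. It was 97.1 to 182 times the level of ins-l1 in the sinuses and 146 to 271 times in the cardiac tube. Over the 6 libraries, Pearson's r of log2(FPKM + 1) was -0.929 between ci-vp-r and tk, 0.290 between ci-vp-r and ins-l1 and -0.339 between tk and ins-l1. These correlations describe libraries that share the removed factor, and no p is given.

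Among the 777 other genes with a mean of at least 1 FPKM, those with the profile most like ci-vp-r were ci-dril1/2 (r = 0.999), bf-3 (0.988) and betaTrCP (0.986), over 6 libraries. The gene ci-dril1/2 was at 878 and 933 FPKM in the PS, 866 and 872 FPKM in the SS and 1346 and 1254 FPKM in the cardiac tube. The most similar to tk were b4galt (0.998), gla3 (0.989) and irf-like-3 (0.971). Of these, b4galt was at 80.3 and 70.0 FPKM in the PS, 72.1 and 69.0 FPKM in the SS and 51.0 and 58.6 FPKM in the cardiac tube, a smaller spread than that of tk. The most similar to ins-l1 were creb/atf-b (0.988), mapkk3/6 (0.970) and arfgap-7 (0.950). These profiles followed the differences between replicates of ins-l1, such as the high first cardiac library, rather than differences between heart parts. Such values are common in these data, where the best correlation of a gene with any other had a median of 0.990 over 780 genes.

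**Figure D3:**
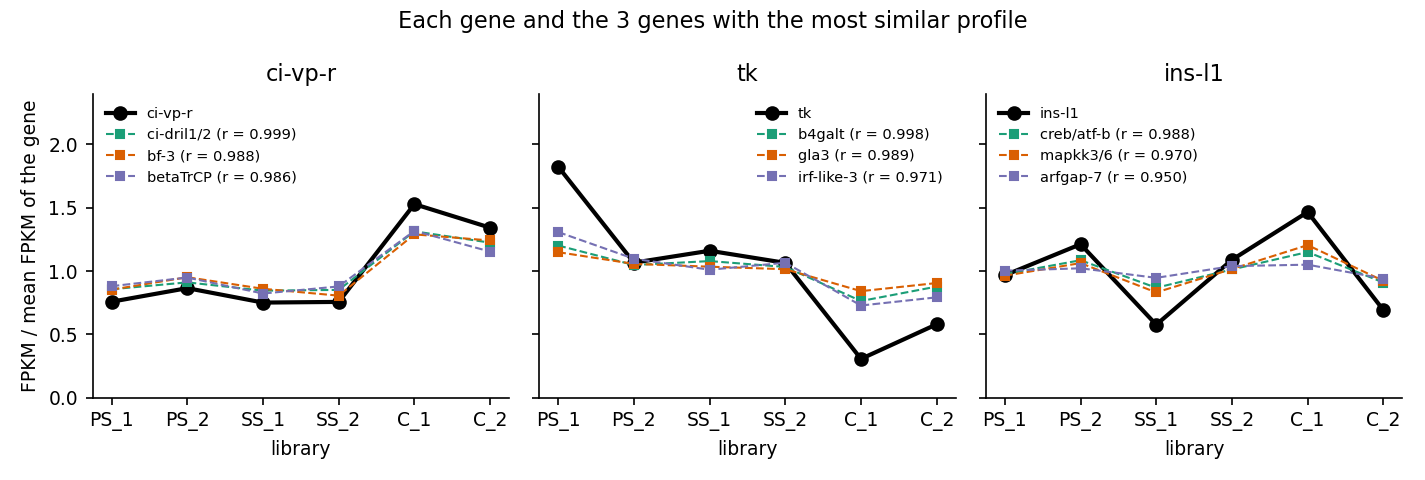
FPKM divided by the gene's own mean (vertical axis) in the libraries of the pharyngeal sinus (PS), the stomach sinus (SS) and the cardiac tube (C) for each member (black) and the 3 genes with the highest Pearson r. The neighbours of ci-vp-r share its high cardiac values, the neighbours of tk its low ones, and the neighbours of ins-l1 differ within groups more than between them.

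The levels of some heart muscle genes followed that of ci-vp-r, and the sinus pieces carried some muscle. Of the 6 heart muscle genes, 5 had negative differences in the PS and 5 in the SS, with medians of -0.42 and -0.28 against the cardiac tube. In the PS 2 of the 6 were lower at an adjusted p under 0.05 (limma), where 2.4% of all genes were lower. They were nk4, the cardiac homeobox factor (-0.83 ± 0.13, adjusted p = 0.0255), and smyd1, a muscle methyltransferase (-0.71 ± 0.14, adjusted p = 0.0385), and neither passed without the variance trend (0.0993 and 0.143). The call of smyd1 was lost without cardiac tube replicate 2 (adjusted p = 0.0815), PS replicate 1 (0.0507) or PS replicate 2 (0.0719). In the SS none of the 6 passed with limma, and 2 had an unadjusted p under 0.05. This list was chosen with earlier results of these data known, so its counts are not read as an excess over all genes. Over the 6 libraries, ci-vp-r had r = 0.897 with the tropomyosin gene tropm1, 0.894 with hand and 0.843 with nk4, but 0.194 with act and -0.01 with gataa. Across the 5 neural genes, r with ci-vp-r ran from -0.768 (gad) to 0.792 (ache), across the 8 endostyle and gut genes from -0.784 (ciap) to 0.965 (foxa-a), and across the 6 blood cell genes from -0.787 (c3-1) to 0.275 (vanabin4). The highest of these values was thus that of foxa-a, a gut and endoderm transcription factor in other animals, at 0.417 and 0.627 FPKM in the PS, 0.995 and 0.834 FPKM in the SS and 6.11 and 4.58 FPKM in the cardiac tube. For tk, r ran from -0.975 (tropm1) to 0.017 (act) across the heart muscle genes and from -0.827 (ache) to 0.829 (neurogenin) across the neural genes. Across the endostyle and gut genes it ran from -0.948 (foxa-a) to 0.646 (hnf6), and across the blood cell genes from -0.004 (vanabin4) to 0.920 (c3-1). The signs for tropm1, foxa-a and c3-1 were thus opposite to those with ci-vp-r, but no list had a single level of r. The part of muscle, neural, gut or blood tissue in the differences of ci-vp-r and tk was not tested.

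The counterparts of the members were sought among the listed genes. No symbol named a vasopressin-family peptide or an insulin receptor. The tachykinin receptor gene tkr was listed, and it was higher in the PS than in the cardiac tube. It was at 20.1 and 7.64 FPKM in the PS libraries, 0.766 and 2.01 FPKM in the SS libraries and 0.811 and 1.15 FPKM in the cardiac tube libraries. Both PS libraries were above all others, and the SS and the cardiac tube overlapped. The log2 difference was 2.77 ± 0.58 for the PS minus the cardiac tube (limma adjusted p = 0.0440), 0.22 ± 0.58 for the SS minus the cardiac tube (adjusted p = 0.858) and 2.55 ± 0.58 for the PS minus the SS (adjusted p = 0.119). The PS call passed in only 6 of 13 alternatives, over which the adjusted p ranged from 0.0180 to 0.107 and the log2 difference from 1.07 to 3.55. It was lost without cardiac tube replicate 1 (adjusted p = 0.107), cardiac tube replicate 2 (0.0878) or PS replicate 1 (0.0573). It was also lost with a pseudocount of 0.1 (0.0581) or 10 (0.0745), with a filter at a mean of 5 FPKM (0.0849) and without the variance trend (0.0993). In the SS, the mean of the ligand gene tk was 2.51 times its cardiac mean, while the SS and cardiac libraries of tkr overlapped. Whether the profiles of tk and tkr differ was not tested.

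The second insulin-like gene, ins-l2, was far more abundant than ins-l1. It was at 133 and 157 FPKM in the PS libraries, 157 and 151 FPKM in the SS libraries and 176 and 157 FPKM in the cardiac tube libraries. It passed in no comparison, with log2 differences of -0.20 ± 0.16 for the PS and -0.11 ± 0.16 for the SS against the cardiac tube (limma adjusted p = 0.523 and 0.719). The only listed gene of the insulin pathway that the symbol patterns matched was foxo, the transcription factor that insulin signalling holds out of the nucleus. Its level was 144 and 131 FPKM in the PS, 116 and 107 FPKM in the SS and 123 and 141 FPKM in the cardiac tube, and it passed in no comparison (adjusted p of 0.428 or more).

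**Figure D4:**
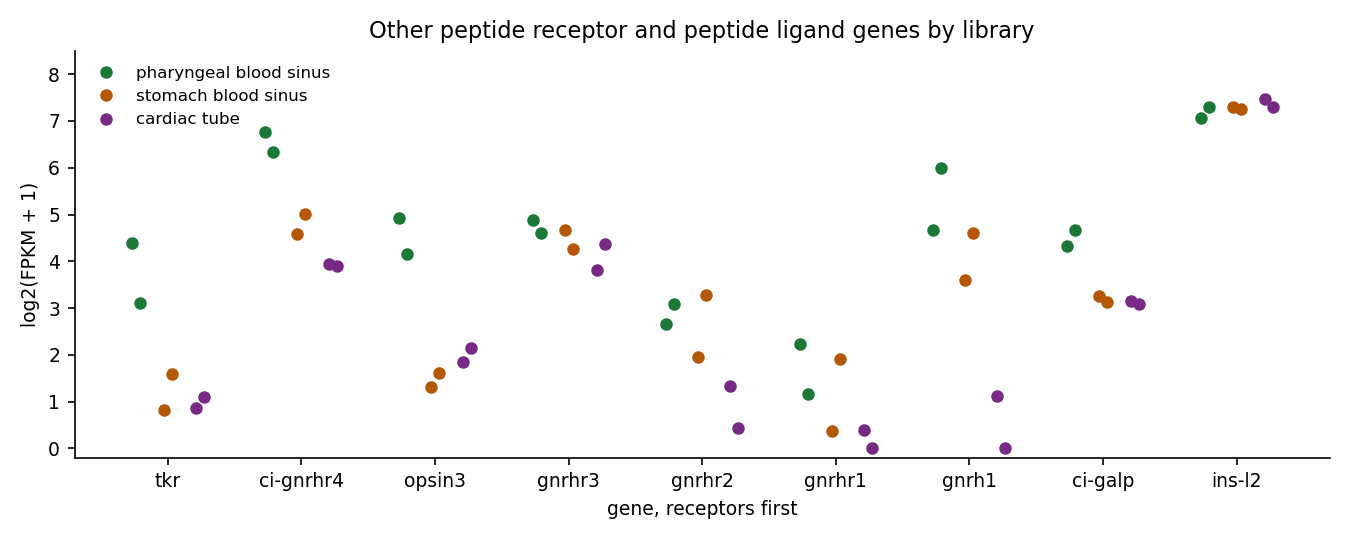
Level on the log2(FPKM + 1) scale of 6 receptor genes and 3 peptide ligand genes in each library, with colours for the pharyngeal blood sinus, the stomach blood sinus and the cardiac tube. For tkr, ci-gnrhr4 and opsin3 both pharyngeal libraries lie above all others, gnrh1 is lowest in the cardiac tube, and ins-l2 lies at the same height in the 3 groups.

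In all, 17 other genes of peptide ligands, receptors of this class, insulin signalling and G protein signalling were listed. Between the PS and the cardiac tube 4 of the 17 were higher and none lower at an adjusted p under 0.05, where 5.04% of all genes were higher and 2.4% lower, and the median difference of the 17 was 0.35. The lists were chosen with earlier results of these data known, so no list count is read as an excess over these shares. Of the 6 genes that the symbol patterns put among the receptors, 3 were higher, namely tkr, the gonadotropin-releasing hormone receptor ci-gnrhr4 (2.64 ± 0.29, adjusted p = 0.00998) and opsin3 (2.55 ± 0.43, adjusted p = 0.0273). By its symbol opsin3 is a light receptor and binds no peptide, and without it 2 of 5 receptors and 3 of 16 genes were higher. Of the 3 ligands, gnrh1, the gonadotropin-releasing hormone precursor, was higher (4.77 ± 0.64, adjusted p = 0.0183), while ci-galp, a galanin-like peptide by its symbol, had 1.38 ± 0.33 (adjusted p = 0.0632) and ins-l2 -0.20 ± 0.16. The gene ci-gnrhr4 was at 108 and 80.2 FPKM in the PS libraries, 23.0 and 31.0 FPKM in the SS libraries and 14.3 and 13.9 FPKM in the cardiac tube libraries. The gene gnrh1 was at 24.4 and 62.3 FPKM in the PS libraries, 11.1 and 23.3 FPKM in the SS libraries and 1.17 and 0 FPKM in the cardiac tube libraries. The size of these differences depends on the pseudocount. With 10 and with 0.1 it was 2.24 and 6.78 for gnrh1, 1.32 and 2.86 for opsin3 and 2.10 and 2.72 for ci-gnrhr4. For ci-gnrhr4 the 3 groups did not overlap, and for gnrh1 both PS libraries were above both SS libraries, which were above the cardiac tube. The most abundant receptor after ci-gnrhr4 was gnrhr3, at 0.65 ± 0.35 (adjusted p = 0.333). None of the 7 G protein signalling genes passed (limma), and 0 of them had an unadjusted p under 0.05. They were rhoa, rhob, rhoc, creb/atf-a, creb/atf-b, creb/atf-c and cam. By symbol none is a subunit of a receptor-coupled G protein, so this says little on signalling by these receptors. The most abundant were cam, by its symbol a calmodulin (-0.45 ± 0.21), and the small GTPase gene rhoc (0.12 ± 0.11). Without cardiac tube replicate 1 the count was 2 of 17, and opsin3 did not pass (adjusted p = 0.0579). Without the variance trend it was 1, ci-gnrhr4.

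In the SS, none of the 17 passed against the cardiac tube with limma, where 1.26% of all genes were higher and 0.378% lower, and 5 of the 17 had an unadjusted p under 0.05. The nearest was gnrh1 (3.54 ± 0.64, adjusted p = 0.0618). Without the model term for the removed factor and with all libraries kept, the count was 2 of 17, of which 1 was lower. Between the sinuses opsin3 alone passed, higher in the PS (29.2 and 17.0 FPKM, against 1.47 and 2.05 FPKM in the SS), with a log2 difference of 3.09 ± 0.43 (adjusted p = 0.0337). The call was lost with a pseudocount of 0.1 (0.0685) or 10 (0.0551) and with a filter at a mean of 5 FPKM (0.0843). Without opsin3, then, none of 16 genes passed between the sinuses with limma, and 4 of them had an unadjusted p under 0.05. Here 0.757% of all genes were higher in the PS and 0.504% lower. Between the sinuses the count without the term for the removed factor was 3 of 17, with all libraries kept. Fits with a library left out lacked that term too, so a changed count there is not the effect of the library alone.

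Markers of other tissues also differed between the heart parts. Of the 5 neural genes, 4 had positive differences for the PS minus the cardiac tube, with a median of 0.84. The catecholamine enzyme gene th was at 222 and 88.2 FPKM in the PS, 1.20 and 0.838 FPKM in the SS and 0.423 and 1.60 FPKM in the cardiac tube (limma adjusted p = 0.00693 for the PS against the cardiac tube). The acetylcholinesterase gene ache went the other way, at 802 and 798 FPKM in the PS, 1303 and 1130 FPKM in the SS and 1819 and 2039 FPKM in the cardiac tube (-1.27 ± 0.12, adjusted p = 0.00693, and 0.0529 without the variance trend). Because ache made up most of it, the sum of the neural list was lowest in the PS, at 1001 to 1133 FPKM in the PS, 1207 to 1408 FPKM in the SS and 1887 to 2118 FPKM in the cardiac tube.

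Of the 8 endostyle and gut genes, 1 was higher and 1 lower in the PS than in the cardiac tube, with a median difference of 0.06. The higher was the transcription factor gene hnf6, which the symbol patterns put in this list and which need not mark gut or endostyle here. It was at 15.2 and 13.7 FPKM in the PS, 0.188 and 0.198 FPKM in the SS and listed at 0 in both cardiac libraries. Its limma adjusted p for the PS against the cardiac tube was 0.00707. The lower was foxa-a (-2.05 ± 0.41, adjusted p = 0.0415), a call that was lost without cardiac tube replicate 1 (0.0534) and with a pseudocount of 0.1 (0.0567) or 10 (0.0703). The list summed to 594 to 1503 FPKM in the PS, 516 FPKM in both SS libraries and 453 to 480 FPKM in the cardiac tube, and hnf1 was at 0 in both PS libraries. Most of the highest sum was the gene endostyle-specific, at 128 and 1010 FPKM in the PS, 21.5 and 9.94 FPKM in the SS and 27.8 and 9.21 FPKM in the cardiac tube. The paper proposes that endostyle genes in the PS, and gh18 and ciap in the SS, likely reflect some contamination during dissection. Here gh18 was at 11.8 and 5.91 FPKM in the PS, 25.9 and 67.3 FPKM in the SS and 32.2 and 23.6 FPKM in the cardiac tube. The gene ciap was at 101 and 128 FPKM in the PS, 130 and 133 FPKM in the SS and 92.7 and 73.8 FPKM in the cardiac tube. The 6 blood cell genes had positive differences in the PS, with a median of 0.32, and none passed with limma, where 2 had an unadjusted p under 0.05. They summed to 15019 to 18095 FPKM in the PS, 10169 to 12252 FPKM in the SS and 13015 to 13565 FPKM in the cardiac tube. The part of these tissues in the receptor and ligand differences was not tested.

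The symbol patterns missed 7 related genes, which were picked after their values were seen and get no test. Both PS libraries of the kinase gene cam-k were above all others, at 240 and 260 FPKM in the PS, 183 and 194 FPKM in the SS and 180 and 158 FPKM in the cardiac tube. In contrast, rgc was lower in both PS libraries (4094 and 3501 FPKM) than in both cardiac libraries (5367 and 4763 FPKM). The libraries of gsk did not overlap either but were close, at 221 and 223 FPKM in the PS against 228 and 226 FPKM. Its log2 difference was -0.03 ± 0.12 (SE). In this comparison 61.7% of all listed genes did not overlap, so nothing is read from the lack of overlap in these genes. The PS and the cardiac tube overlapped for cipc2, gi1, ciarr and cgrp-rcp. Of these, cipc2, by its symbol a prohormone convertase that cuts peptide precursors, was at 29.0 and 12.6 FPKM in the PS, 9.76 and 17.4 FPKM in the SS and 15.4 and 18.6 FPKM in the cardiac tube, with overlap of all groups. The G protein symbol gi1 was at 1027 and 1137 FPKM in the PS, 878 and 969 FPKM in the SS and 1116 and 929 FPKM in the cardiac tube.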

How the data were processed

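Per the paper's methods and the submitters' processing notes, adapters were trimmed with cutadapt, reads were aligned with STAR to the UCSC genome ci3, and unique reads were counted per gene with featureCounts. The methods give tool versions under the zebrafish work and refer the Ciona data to the same pipeline. The deposited FPKM were made by the authors from adjusted reads with DESeq2 size factors (0.975 to 1.03). The columns headed raw hold a score, that is, reads from which the authors had removed 1 RUVs factor. The replicate differences of the 179 genes with a mean above 1000 had singular values of 2.43, 1.79 and 0.00280, so count models were not used. Fold change and p-value columns of the authors' own comparisons were not used.

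The 3 comparisons came from a single limma model (version 3.58.1, R 4.3.3) of log2(FPKM + 1) over 793 genes and 6 libraries, with a term for the removed factor (2 residual and 4.02 prior degrees of freedom), a variance trend and Benjamini-Hochberg adjustment at 0.05 over all genes, after a test on simulated data. The median SE was 0.209. Read depth is unknown. The named genes were the 3 members, tkr as the receptor of a member, the 3 genes with the highest Pearson r per member, listed genes past the threshold and the most abundant of each list. Lists were set by symbol patterns for peptide ligands, peptide receptors, insulin signalling, G protein signalling, peptide processing (0 matches), heart muscle, neural, endostyle and gut, and blood cell genes. Members and lists were chosen with earlier results of these data known. Alternatives changed the pseudocount, filter, scale, factor term, trend, replicate block and libraries. Fits with a library left out had no factor term, and a lone library is assumed to vary like the others.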

Additional observations from a re-analysis of the deposited data

Results flagged for a closer look

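The light receptor gene opsin3 differed between the sinuses in its change against the cardiac tube, by the direct test of the PS against the SS (limma adjusted p = 0.0337). It was at 29.2 and 17.0 FPKM in the PS, 1.47 and 2.05 FPKM in the SS and 2.59 and 3.43 FPKM in the cardiac tube. Over 13 alternatives the adjusted p ranged from 0.0104 to 0.0843.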

How the results depend on the processing

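The differences of ci-vp-r against the cardiac tube kept their sign in all 14 alternatives, at -0.92 to -0.73 for the PS and -1.02 to -0.83 for the SS. Those of tk kept theirs too, but the sizes moved to 0.58 for the PS and 0.42 for the SS with a pseudocount of 10 and to 0.93 and 0.60 with each library moved by 1 adjusted read, an alternative chosen after seeing the data. The signs of ins-l1 turned in 3 of 13 alternatives against the cardiac tube in each sinus. The filter at a mean of 5 FPKM removes ins-l1 and gave no value for it. The count of the 17 list genes was 4 for the PS against the cardiac tube, 0 for the SS against the cardiac tube and 1 for the PS against the SS. In the first it was 1 without the trend, 3 with a pseudocount of 0.1 or 10 or with the filter, and 6 without the factor term, of which 1 was lower. In the second it was 1 with the filter, 1 with adjusted reads and 2 without the factor term. In the last it was 0 with a pseudocount of 0.1 or 10 or with the filter, 2 with adjusted reads and 3 without the factor term. With single libraries left out it ranged from 2 to 6, from 0 to 1 and from 1 to 3. A replicate block gave 4, 0 and 1 as well, with the same genes, and 61 calls in place of 59 over all genes for the PS against the cardiac tube. That block took the place of the factor term. Both set the first replicate against the second in every group, and they nearly coincide here. For foxa-a in the PS, the limma adjusted p was 0.0412 with the block and 0.0415 with the term. The same calls are therefore close to forced and are no separate check. Over all genes the counts of 59, 13 and 10 calls ranged from 13 to 151, from 0 to 113 and from 2 to 33 over the alternatives. No pairs were modelled beyond the factor term, which acts nearly as a block by replicate number, and the labels give no pairing. Deviations of same-numbered libraries correlated at -0.46 to -0.54. The removed factor forces such values to be negative, so they cannot show whether the libraries are paired. Few adjusted reads limit tk and ins-l1. The cause of these shifts was not tested.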
